A study of Mus musculus with 59 samples.

Results

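The response of Tbk1 knockout microglia to interleukin-4 (IL4) was measured by RNA sequencing in 10 of the 59 libraries of the series. Of these, 5 came from KO cultures given IL4 and 5 from KO cultures left untreated (UT), chosen by their titles and paired by the replicate number in them. Microglia are the resident macrophages of the brain, and these were primary cultures from P0 or P1 pups, described in the series as 5 independent cultures per genotype. KO cells were Tbk1fl/fl with Cre recombinase under Cx3cr1 control (Cx3CR1-Cre+), so the deletion depends on the activity of that promoter. Both groups compared here carried the deletion, and only the added cytokine differed. The cells were kept in DMEM with 10% FCS and 50 μM β-mercaptoethanol for 16 h, then received fresh medium with IL4 at 20 ng/mL or without it for 24 h. HET cells (Tbk1fl/+, Cx3CR1-Cre+) and WT cells (Tbk1fl/fl, Cx3CR1-Cre-) had the same treatments, with 5 libraries a group except WT UT with 4. They are used below only to set the KO response beside theirs.

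IL4 is a cytokine of type 2 immunity. It binds IL4Rα together with either the common γ chain (Il2rg) or IL13Rα1, and the JAK kinases on these chains phosphorylate the transcription factor STAT6, which enters the nucleus and induces genes of repair, lipid uptake and antigen presentation. Macrophages in this state are called alternatively activated, and Arg1, Retnla, Mrc1 and Chil3 are its classic mouse markers. Tbk1 encodes a kinase that acts downstream of STING, TLR3 and TLR4 in type I interferon induction, and in autophagy; it is not a canonical part of the IL4 receptor pathway.

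The authors deposited TPM values, a length-scaled share of all transcripts, so depth per library is unknown. Differences are given as log2(TPM + 1) in KO IL4 minus KO UT ± SE from limma, a scale that understates the change of low genes. A gene was called at an adjusted p below 0.05 over the 15908 genes tested. Levels are means ± SD over 5 libraries. The KO libraries held 13591 to 14202 genes at 1 TPM or more with IL4 and 13594 to 14288 untreated. The libraries of culture 5 had the lowest mean correlation to the other libraries of their group, 0.974 in both conditions. The gap was small, since the other cultures had 0.978 to 0.982 with IL4 and 0.977 to 0.981 untreated.

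Tbk1 itself (chromosome 10, 121546455 to 121586794, mm10) was measured in every KO library. KO cultures 1 to 5 had 12.3, 23.6, 14.8, 16.0 and 11.1 TPM with IL4, against 18.2, 27.8, 16.5, 20.7 and 16.5 TPM untreated. For comparison, HET averaged 31.0 ± 2.53 TPM with IL4 and 34.9 ± 1.67 TPM untreated, and WT averaged 44.0 ± 1.69 TPM with IL4 and 47.5 ± 4.17 TPM untreated. The KO level thus lay below both other genotypes but not at 0, and culture 2 had the highest residual level in both conditions. The source of the remaining KO reads was not tested. Tbk1 was lower in the IL4 library of all 5 pairs, but was not called (-0.36 ± 0.14, adjusted p = 0.126). With the culture pairs as a block in the model the adjusted p was 0.0189.

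IL4 changed 1338 genes in KO microglia, 856 higher (5.38% of those tested) and 482 lower (3.03%). Changes of at least 2-fold on this scale were fewer, with 207 genes higher (1.30%) and 47 lower (0.295%). The median over all genes tested was -0.06. The libraries did not overlap between IL4 and UT at 849 genes that were higher (5.34%) and 583 that were lower (3.66%). With the culture pairs as a block in the KO libraries, the calls became 1659 higher (10.4%) and 2264 lower (14.2%), and 1306 of the 1338 genes were called in both fits. The shares of each fit are the background for the counts of gene lists below. Without culture 5 there were 294 lower calls, and without culture 1 there were 310. Among genes averaging at least 5 TPM whose groups did not overlap, the largest rises were in Arg1, Retnla, Tmem26, Cd74 and Postn (10.06, 8.95, 5.50, 5.36 and 4.55) and the largest falls in Tlr2, Dkk2 and Icosl (-1.90, -1.88 and -1.75).

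**Figure D1:**
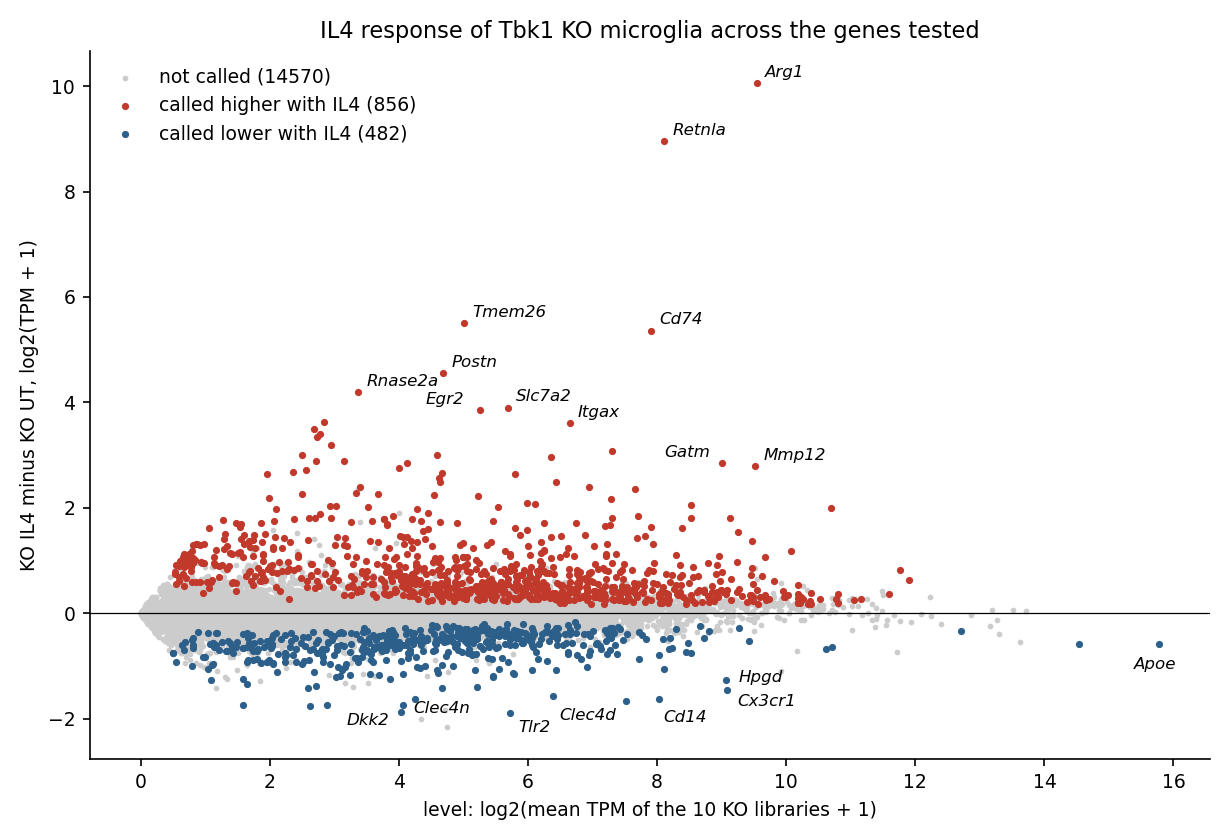
Difference of KO IL4 minus KO UT (y axis, log2(TPM + 1)) against the level over the 10 KO libraries (x axis, log2 scale) for 15908 genes, each a point. Called genes are coloured, 856 higher and 482 lower; the rises reach 10.06 at Arg1, whereas the named falls end at -1.90 for Tlr2.

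The signature enzyme Arg1, arginase 1, which splits arginine into ornithine and urea, had the largest rise of all genes tested on the log2(TPM + 1) scale. KO cultures 1 to 5 had 1687, 1056, 1312, 1785 and 1602 TPM with IL4, against 0.426, 0.334, 0.522, 0.193 and 0.395 TPM untreated. The means differed 3980-fold, and the log2 difference was 10.06 ± 0.35 (adjusted p = 4.71e-24). Slc7a2, a cationic amino acid transporter that brings arginine into the cell, had 99.7, 98.3, 61.1, 102 and 115 TPM with IL4, against 4.96, 6.00, 3.29, 7.14 and 5.93 TPM untreated (3.90 ± 0.33, adjusted p = 8.86e-12). Every IL4 library stood far above every untreated one for both genes, with culture 3 the lowest for Slc7a2 in both conditions. Ass1, argininosuccinate synthase, averaged 11.6 ± 4.36 TPM with IL4 and 4.17 ± 1.75 TPM untreated (1.30 ± 0.31, adjusted p = 0.00327). Gatm, which joins arginine and glycine on the way to creatine and is named here after its values were seen, averaged 905 ± 157 TPM with IL4 and 124 ± 17.7 TPM untreated (2.85 ± 0.15, adjusted p = 1.08e-17). Over the whole list of arginine and polyamine metabolism, 3 of 21 members tested were higher and 1 lower, and the lower call was lost without culture 1, 2, 3 or 5.

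Retnla (RELMα, a secreted cysteine-rich protein) had 963, 577, 444, 328 and 447 TPM with IL4 in cultures 1 to 5. Untreated, it was listed at 0 in cultures 1 to 4 and at 0.243 TPM in culture 5 (8.95 ± 0.24, adjusted p = 1.38e-27). Other secreted markers reached lower levels. Chil3, the chitinase-like protein Ym1, averaged 2.83 ± 2.16 TPM with IL4 and was listed at 0 in all untreated libraries (adjusted p = 1.18e-07), and the highest value, 6.37 TPM, was in culture 4. Rnase2a, an eosinophil-associated ribonuclease, had 18.1, 19.0, 7.94, 21.4 and 26.4 TPM with IL4 and was listed at 0 in all 5 untreated libraries (adjusted p = 4.89e-15). Chil3, Rnase2a and Ear2 have near-identical copies in the mouse genome, so reads may be split among them.

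Tmem26, a membrane protein known as a marker of beige fat cells, had 77.1, 66.7, 50.5, 51.0 and 65.7 TPM with IL4, against 0.300, 0.230, 0.499, 0.418 and 0.442 TPM untreated (5.50 ± 0.17, adjusted p = 4.80e-26). Postn, the matrix protein periostin, had 87.0, 35.0, 55.7, 38.3 and 26.1 TPM with IL4, against 0.568, 3.20, 0.392, 0.593 and 0.846 TPM untreated (4.55 ± 0.26, adjusted p = 1.19e-16). Periostin is also made by fibroblasts, whose markers Col1a1, Col3a1 and Dcn averaged 4.65, 2.40 and 0.539 TPM with IL4 and 8.92, 3.47 and 0.886 TPM untreated, and none of the 3 was called. Pdcd1lg2, the inhibitory ligand PD-L2, had 17.2, 11.6, 11.9, 10.6 and 9.86 TPM with IL4 and at most 0.141 TPM in any untreated library (3.62 ± 0.13, adjusted p = 3.90e-23). Without the cytokine, Tmem26 and Pdcd1lg2 stayed below 1 TPM in every KO culture, and Postn did in all but culture 2.

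STAT6 binds a palindrome of TTC and GAA with 4 bases between them, TTCNNNNGAA, which reads the same on both strands. RefSeq promoter windows (GRCm38.p6, 250 bases before the start and 50 from it on) were at hand for 10 of the 15 genes with the largest rises, and 4 of these windows held the motif. The 4 windows are shown to let the motif be read beside the responses of Retnla, Pdcd1lg2, Tmem26 and Itgax. Only the 250 bases before the start are printed, all from the plus strand, 5′ to 3′, with the motif in capitals.
Retnla: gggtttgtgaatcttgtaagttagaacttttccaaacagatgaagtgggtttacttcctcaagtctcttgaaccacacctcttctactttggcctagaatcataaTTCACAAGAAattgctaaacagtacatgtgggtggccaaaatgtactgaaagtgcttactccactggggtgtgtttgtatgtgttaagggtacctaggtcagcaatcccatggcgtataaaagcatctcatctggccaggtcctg
Pdcd1lg2: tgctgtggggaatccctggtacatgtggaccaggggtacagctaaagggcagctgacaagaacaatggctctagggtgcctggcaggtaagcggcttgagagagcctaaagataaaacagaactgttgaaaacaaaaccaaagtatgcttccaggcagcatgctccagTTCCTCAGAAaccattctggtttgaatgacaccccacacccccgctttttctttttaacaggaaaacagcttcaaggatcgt
Tmem26: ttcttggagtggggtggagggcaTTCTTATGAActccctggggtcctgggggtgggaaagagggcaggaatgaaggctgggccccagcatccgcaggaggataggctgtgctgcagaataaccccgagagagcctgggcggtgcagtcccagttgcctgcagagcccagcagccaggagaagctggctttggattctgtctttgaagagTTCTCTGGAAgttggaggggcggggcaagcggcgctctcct
Itgax: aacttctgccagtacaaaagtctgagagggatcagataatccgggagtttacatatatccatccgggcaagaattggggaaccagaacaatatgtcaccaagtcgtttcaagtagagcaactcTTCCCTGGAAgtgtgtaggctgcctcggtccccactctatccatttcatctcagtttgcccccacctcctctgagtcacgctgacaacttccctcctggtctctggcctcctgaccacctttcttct

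The Retnla window lies at chr16:48842359-48842608 with the motif 145 to 136 bases before the start, and the Pdcd1lg2 window at chr19:29410669-29410918 with the motif 82 to 73 bases before it. The Tmem26 window at chr10:68723496-68723745 holds 2 copies, 227 to 218 and 41 to 32 bases before the start. The Itgax window at chr7:128129300-128129549 holds 1 copy, 127 to 118 bases before the start. Of all 32851 RefSeq windows, 6.95% hold the motif, and of the 10830 tested genes with a window 6.67% do. The share was 11.6% (17 of 146) among genes called higher by at least 1 on the log2 scale and 6.45% (2 of 31) among those called lower by as much. The spacing with 3 bases, TTCNNNGAA, stood in 6.16% of the same 146 windows and in 8.14% of the tested genes' windows. These shares are descriptions of letters in short windows and say nothing of where a factor was bound.

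Within the receptor pathway, both chains that bind IL4 or IL13 directly fell, while the shared γ chain and several inhibitors rose. Of 20 members tested, 6 were higher and 2 lower, with a median of 0.03. Il13ra1, the chain that pairs with IL4Rα in the type II receptor, averaged 7.65 ± 1.12 TPM with IL4 and 19.5 ± 3.00 TPM untreated (-1.24 ± 0.14, adjusted p = 4.95e-09). Il4ra averaged 27.1 ± 3.11 TPM with IL4 and 37.8 ± 5.00 TPM untreated (-0.47 ± 0.10, adjusted p = 0.00102). Il2rg, the γ chain of the type I receptor, rose to 31.4 ± 7.04 TPM with IL4, against 12.3 ± 3.11 TPM untreated (1.28 ± 0.17, adjusted p = 4.44e-07). The groups did not overlap for any of these 3 chains.

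Socs1, which binds and inhibits JAK kinases, had 12.0, 7.80, 7.62, 8.85 and 9.05 TPM with IL4, against 0.273, 0.397, 0.0570, 0.417 and 0.0890 TPM untreated (3.01 ± 0.20, adjusted p = 8.26e-15). Other inhibitors of cytokine signalling moved the same way. Socs2 averaged 23.0 ± 2.42 TPM with IL4 and 8.76 ± 1.90 TPM untreated, and Cish averaged 4.08 ± 0.869 TPM with IL4 and 1.38 ± 0.510 TPM untreated. The adaptor Dok2, a docking protein of tyrosine kinase signalling, averaged 82.9 ± 18.5 TPM with IL4 and 26.6 ± 6.59 TPM untreated (1.62 ± 0.18, adjusted p = 1.59e-08). The log2 differences were 1.31 for Socs2 (adjusted p = 0.000918), 1.11 for Cish (adjusted p = 0.0364) and 0.45 for Jak2 (adjusted p = 0.0181). Cish lost the call without any 1 of the cultures, and Jak2 without culture 1, 2 or 5. Socs3 (0.04), Stat6 (0.03), Jak1 (-0.03), Tyk2 (0.04) and Stat3 (-0.16) were not called. The phosphatase Ptpn1 missed the threshold (0.42 ± 0.14, adjusted p = 0.0510) and passed it with the pairs as a block (adjusted p = 0.0268), and the adaptor Irs1 did likewise in the other direction (-0.40 ± 0.31, adjusted p = 0.550, 0.0111 with the block).

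Most alternative activation genes rose: of 34 members tested, 23 were higher and 1 was lower, with a median of 1.50. Of the list's 40 names, 6 were not tested, among them Chil4, which reached at most 0.0950 TPM, and Ear11, an older name of Rnase2a. The lectin Mrc1 (CD206, the mannose receptor) had 208, 85.5, 137, 134 and 159 TPM with IL4, against 47.7, 15.1, 26.8, 15.0 and 27.3 TPM untreated (2.49 ± 0.29, adjusted p = 2.27e-08). The highest untreated culture lay below the lowest treated one. The lectin Mgl2 averaged 11.2 ± 5.85 TPM with IL4 and 0.0808 ± 0.0462 TPM untreated, and its close relative Clec10a averaged 2.61 ± 1.42 TPM with IL4 and 0.608 ± 0.508 TPM untreated; reads of this pair may be shared. Clec7a, the β-glucan receptor dectin-1, was already abundant and averaged 1488 ± 168 TPM with IL4 and 658 ± 117 TPM untreated (1.19 ± 0.32, adjusted p = 0.0121), a call lost without culture 1.

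Secreted and lipid-handling members rose too. Ccl24 (eotaxin-2), an eosinophil attractant, averaged 26.9 ± 9.57 TPM with IL4 and 2.99 ± 0.642 TPM untreated (2.75 ± 0.31, adjusted p = 1.59e-08). Mmp12, macrophage elastase, had 1005, 1504, 1061, 550 and 2200 TPM with IL4, against 175, 262, 106, 61.8 and 402 TPM untreated (2.79 ± 0.57, adjusted p = 0.000574). Mmp12 varied widely between cultures, with culture 5 highest and culture 4 lowest in both conditions. Cd36, a scavenger receptor for fatty acids and oxidized lipoproteins, averaged 587 ± 142 TPM with IL4 and 145 ± 58.2 TPM untreated (2.06 ± 0.28, adjusted p = 6.48e-07). Ptgs1 (cyclooxygenase 1) averaged 205 ± 34.9 TPM with IL4 and 38.5 ± 7.31 TPM untreated, and Tgm2 (transglutaminase 2) averaged 60.4 ± 11.2 TPM with IL4 and 12.3 ± 3.07 TPM untreated. Atp6v0d2, a proton pump subunit of fusing macrophages, averaged 280 ± 63.0 TPM with IL4 and 34.2 ± 14.6 TPM untreated (3.07 ± 0.31, adjusted p = 9.57e-10). The antagonist Il1rn averaged 17.0 ± 4.46 TPM with IL4 and 6.51 ± 3.40 TPM untreated (1.36 ± 0.31, adjusted p = 0.00250).

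Not every textbook member was called. Ccl17 was listed at 0 in 3 of the 5 IL4 libraries and in all untreated ones, and reached 2.25 TPM in IL4 culture 5. Ccl22 averaged 3.59 ± 3.04 TPM with IL4 and 0.239 ± 0.0907 TPM untreated without overlap, but its adjusted p was 0.0992, or 0.0219 with the block. Igf1, a growth factor that microglia secrete, was higher in all 5 pairs (1151 ± 151 TPM with IL4 and 777 ± 143 TPM untreated) and was called with the block alone (adjusted p = 0.214, 0.000599 with the block), and so was Fabp4 (adjusted p = 0.606, 0.00661 with the KO block and 0.156 with the culture block). F13a1 was lower in all 5 pairs (-0.53 ± 0.21, adjusted p = 0.123, 0.0305 with the block). Folr2 (0.07), Alox15 (0.26), Ccl8 (0.13), Dcstamp (1.13) and Vegfa (-0.33) were called in neither fit. Ch25h, which makes 25-hydroxycholesterol, was the member that fell, to 33.1 ± 9.68 TPM with IL4, against 75.6 ± 25.1 TPM untreated (-1.15 ± 0.27, adjusted p = 0.00286).

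**Figure D2:**
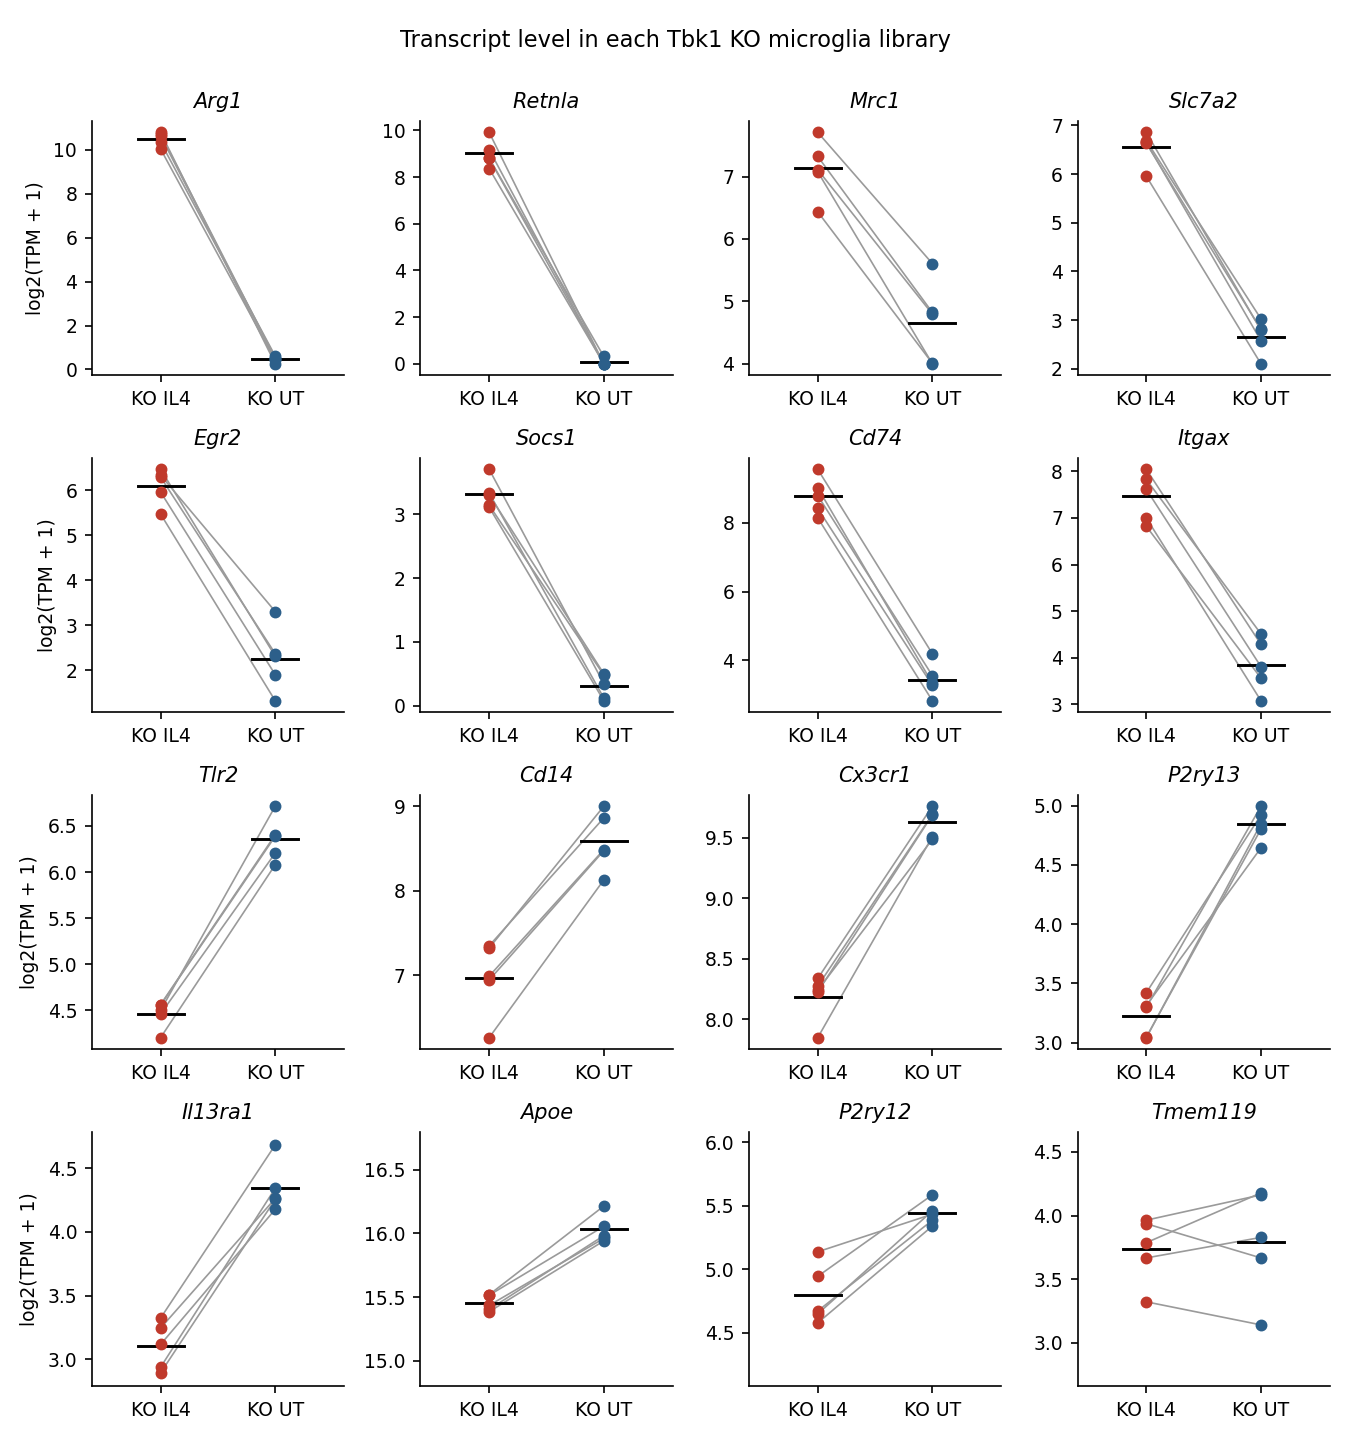
Level of 16 genes in each KO library (y axis, log2(TPM + 1), with its own range in each panel), KO IL4 at the left and KO UT at the right. Points are libraries (IL4 red, UT blue), grey lines join the libraries of a culture and black bars are means; Arg1, Retnla and Socs1 start near 0, and P2ry12 and Tmem119 are the panels that were not called.

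Among 18 transcription factors tied to alternative activation, 9 were higher and 2 lower, with a median of 0.80. Egr2, an early factor of this program, had 87.4, 79.8, 61.3, 43.4 and 77.4 TPM with IL4, against 3.98, 8.91, 2.75, 1.51 and 4.18 TPM untreated (3.86 ± 0.34, adjusted p = 2.20e-11). Irf4, which acts with STAT6 in macrophages, averaged 3.30 ± 1.28 TPM with IL4 and 0.277 ± 0.170 TPM untreated (1.71 ± 0.19, adjusted p = 1.38e-08). Klf4, Batf3 and Nfil3 rose by 2.04, 2.57 and 2.02. Pparg, a lipid-sensing nuclear receptor, averaged 22.4 ± 5.21 TPM with IL4 and 7.83 ± 3.34 TPM untreated (1.47 ± 0.22, adjusted p = 6.05e-06). Its coactivator Ppargc1b rose by 1.44 (adjusted p = 8.16e-10), and its dimer partner Rxra fell by 0.35 (adjusted p = 0.00107).

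The related repressors Bhlhe40 and Bhlhe41 moved in opposite directions. Bhlhe40 averaged 115 ± 18.3 TPM with IL4 and 34.5 ± 6.55 TPM untreated (1.71 ± 0.18, adjusted p = 3.48e-09). Bhlhe41 averaged 33.4 ± 6.07 TPM with IL4 and 74.0 ± 8.85 TPM untreated (-1.13 ± 0.24, adjusted p = 0.000841). In both, the libraries of the conditions did not overlap. Myc was higher in all 5 pairs, at 99.4 ± 22.9 TPM with IL4 and 67.0 ± 25.4 TPM untreated, and was called with the block alone (0.61 ± 0.28, adjusted p = 0.214, 0.00695 with the block). Ppard was lower in all 5 pairs and was called with the block alone (-0.28 ± 0.12, adjusted p = 0.151, 0.0238 with the block). Kdm6b (-0.06), Cebpa (0.09), Cebpb (0.16) and Akt1 (-0.01) were not called.

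MHC class II genes, which present peptides to CD4 T cells, mostly rose: 9 of 15 tested were higher and 1 was lower, with a median of 0.91; the lower call was lost without culture 4 or culture 5. Cd74, the invariant chain, had 756, 444, 519, 283 and 342 TPM with IL4, against 17.2, 10.7, 9.02, 6.04 and 8.59 TPM untreated (5.36 ± 0.28, adjusted p = 5.99e-18). Culture 1 was the highest and culture 4 the lowest in both conditions. The classical chains were far less abundant. H2-Aa averaged 11.6 ± 6.19 TPM with IL4 and 0.0842 ± 0.115 TPM untreated (3.40 ± 0.35, adjusted p = 1.10e-09), H2-Ab1 averaged 16.0 ± 8.83 TPM with IL4 and 2.17 ± 0.528 TPM untreated, and H2-Eb1 averaged 9.34 ± 4.53 TPM with IL4 and 0.423 ± 0.185 TPM untreated. In each of these 3 chains IL4 culture 2 was the highest and IL4 culture 4 the lowest. Genes named here after their values were seen include the master regulator Ciita, at 1.04 ± 0.433 TPM with IL4 and 0.00940 ± 0.0134 TPM untreated, the peptide exchange chain H2-DMa (1.71) and the lysosomal thiol reductase Ifi30 (1.80). Of 14 costimulatory and checkpoint ligands 4 were higher and 3 lower. Cd274 (PD-L1) rose by 1.75 and Cd40 by 1.80, whereas Icosl, the ligand of ICOS, fell to 1.83 ± 0.312 TPM with IL4, against 8.46 ± 0.464 TPM untreated (-1.75 ± 0.19, adjusted p = 3.94e-09). Without culture 1, 2 or 5, or under median-of-ratios scaling, 1 ligand was called lower, and with the block 5 were.

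Several receptors for microbial products were among the genes that fell most. Tlr2, the receptor of bacterial lipoproteins, had 22.5, 17.4, 21.0, 21.6 and 22.6 TPM with IL4, against 82.8, 66.6, 72.8, 104 and 83.7 TPM untreated (-1.90 ± 0.16, adjusted p = 1.10e-11). Cd14, the LPS coreceptor, had 159, 75.6, 122, 162 and 126 TPM with IL4, against 512, 279, 355, 465 and 358 TPM untreated (-1.62 ± 0.23, adjusted p = 1.44e-06). Culture 2 was lowest for both genes in both conditions. The lectin receptors Clec4n (dectin-2) and Clec4d averaged 6.73 ± 2.93 and 88.2 ± 24.9 TPM with IL4, against 24.7 ± 9.12 and 277 ± 57.8 TPM untreated (-1.73 and -1.66). Among 23 Toll-like receptors and adaptors, 3 were higher and 5 lower, and the higher count was 1 without culture 1 or under median-of-ratios scaling. With the block 3 were higher (13.0%, against 10.4% over all genes) and 9 lower (39.1%, against 14.2%). The RNA sensor Tlr8 led the rises at 171 ± 7.43 TPM with IL4 and 89.0 ± 9.89 TPM untreated (0.94 ± 0.15, adjusted p = 2.12e-05). Of 23 lectin receptors 10 were higher and 5 lower, and the lower count was 3 without culture 1 or culture 5 or under median-of-ratios scaling, and 8 with the block. Mgl2, Clec4a3 and Mrc1 rose most (3.35, 2.65 and 2.49).

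In the inflammatory program, NF-κB targets and cytokines were called higher at a larger share than all genes, and lower at about the same share. Of 35 tested, 5 were higher (14.3%, against 5.38% over all genes) and 1 was lower (2.86%, against 3.03%). The lower one was Nfkbiz, which encodes IκBζ, at 2.66 ± 0.284 TPM with IL4 and 8.54 ± 1.25 TPM untreated (-1.38 ± 0.11, adjusted p = 1.09e-12). With the block 7 were higher (20.0%, against 10.4% over all genes) and 6 lower (17.1%, against 14.2%). Il1b was not called (10.2 ± 5.38 TPM with IL4 and 18.3 ± 13.3 TPM untreated, adjusted p = 0.642), and neither was Tnf (4.88 ± 0.938 TPM with IL4 and 7.45 ± 2.57 TPM untreated, adjusted p = 0.239, 0.0345 with the KO block and 0.0916 with the culture block); both are named after their values were seen. Nlrp3, the inflammasome sensor, fell to 10.3 ± 1.09 TPM with IL4, against 20.6 ± 4.56 TPM untreated (-0.91 ± 0.16, adjusted p = 4.22e-05). Of 44 interferon-stimulated genes 0 were higher and 4 lower in limma (9.09%, against 3.03% over all genes), with a median of -0.15. With the block 2 were higher (4.55%, against 10.4% over all genes) and 10 lower (22.7%, against 14.2%). Their lower count was 2 without culture 1, 4 or 5 or under median-of-ratios scaling. Eif2ak2 (PKR) fell by 0.43 and Trim30a by 0.50, a call lost under median-of-ratios scaling.

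Chemokines were selective. Of 26 tested, 5 were higher and 0 were lower, and with the block 7 and 3. Ccl7 averaged 13.0 ± 4.64 TPM with IL4 and 0.473 ± 0.284 TPM untreated (3.19 ± 0.46, adjusted p = 2.04e-06), and Ccl9 averaged 336 ± 117 TPM with IL4 and 66.7 ± 31.1 TPM untreated (2.36 ± 0.33, adjusted p = 1.55e-06). Ccl2 and Ccl6 (1.68 and 1.45, named after their values were seen) were higher in all 5 pairs, though the libraries overlapped, and Ccl2 lost the call without culture 3 or 5. Of the receptors, Ccr2 rose by 1.38, while Cx3cr1 fell.

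Cx3cr1, the fractalkine receptor whose promoter also drives Cre, had 322, 308, 301, 298 and 229 TPM with IL4, against 867, 827, 717, 825 and 728 TPM untreated (-1.45 ± 0.21, adjusted p = 2.01e-06). It belongs to the homeostatic genes, expressed by resting microglia, of which 0 of 23 were higher and 8 lower, with a median of -0.32. With the block 2 were higher (8.70%, against 10.4% over all genes) and 12 lower (52.2%, against 14.2%). Without culture 1 or culture 5 the lower count was 5. P2ry13, an ADP receptor, fell to 8.40 ± 1.11 TPM with IL4, against 27.8 ± 2.60 TPM untreated (-1.62 ± 0.19, adjusted p = 2.59e-08). Hpgd, which inactivates prostaglandins, fell to 312 ± 13.5 TPM with IL4, against 754 ± 90.1 TPM untreated (-1.26 ± 0.22, adjusted p = 4.48e-05). Gpr34, a lysophosphatidylserine receptor, fell to 78.8 ± 17.8 TPM with IL4, against 161 ± 38.8 TPM untreated (-1.02 ± 0.17, adjusted p = 2.02e-05).

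Other defining homeostatic genes, named after their values were seen, were not called. P2ry12, the ADP receptor of process movement, was lower in all 5 pairs without overlap, at 27.1 ± 4.78 TPM with IL4 and 42.5 ± 2.84 TPM untreated (-0.64 ± 0.22, adjusted p = 0.0629, 0.00375 with the block). Tmem119 had 12.5 ± 2.26 TPM with IL4 and 13.3 ± 3.88 TPM untreated, and Csf1r had 1220 ± 135 TPM with IL4 and 1180 ± 68.0 TPM untreated. Summed over 13 microglia markers, the level was 9234 ± 399 TPM with IL4 and 9053 ± 580 TPM untreated.

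Disease-associated microglia genes, a set first described around amyloid plaques in mice, moved both ways, with 12 of 32 higher and 3 lower and a median of 0.20. With the block the lower count was 7, under median-of-ratios scaling it was 1, and under quantile normalization 8 were higher and 2 lower. Itgax (CD11c), an integrin subunit, had 195, 263, 127, 112 and 226 TPM with IL4, against 13.0, 18.5, 7.43, 10.8 and 21.8 TPM untreated (3.61 ± 0.41, adjusted p = 1.75e-08). Lgals3 (galectin-3) averaged 2629 ± 786 TPM with IL4 and 686 ± 313 TPM untreated (2.00 ± 0.39, adjusted p = 0.000378), and the protease inhibitor Cst7 averaged 212 ± 45.3 TPM with IL4 and 86.4 ± 22.9 TPM untreated (1.31 ± 0.26, adjusted p = 0.000441). Apoe, the lipid carrier and the most abundant transcript here, fell to 44847 ± 1944 TPM with IL4, against 67142 ± 5371 TPM untreated (-0.58 ± 0.09, adjusted p = 7.02e-06). Its call was lost under median-of-ratios scaling and in the fit of the KO libraries without the block, and quantile normalization, which gives the top gene of each library the same value, returned 0. Abcg1 rose (1.09) and Abca1 fell (-0.80), although both export cholesterol.

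The 50 most abundant genes took 26.2 ± 2.15% of the TPM with IL4 and 29.9 ± 1.91% untreated, lower in 5 of 5 pairs (exact two-sided permutation test, p = 0.00794, the smallest that 5 against 5 allows, adjusted p = 0.0265 over 10 measures). TPM is a share of a fixed total, so this difference moves with the levels of all other genes, and its part in the small rises described next was not tested.

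Genes of protein synthesis and respiration had small positive differences. Of 40 cytosolic ribosomal proteins 15 were higher and 0 lower, with a median of 0.21, and 31 were higher with the block. Under quantile normalization 1 was called higher and the median was 0.04, and the count was 5 without culture 1, 7 without culture 5, 9 without culture 3 and 9 without culture 4. Rplp1 averaged 2014 ± 137 TPM with IL4 and 1559 ± 96.5 TPM untreated (0.37 ± 0.09, adjusted p = 0.00279), a call lost under quantile normalization. Oxidative phosphorylation had 8 higher calls among 36 genes and 0 lower (median 0.21), 18 with the block, 17 under median-of-ratios scaling, and 3 without culture 5 or 5 without culture 1. Sdhb, the iron-sulfur subunit of complex II, averaged 163 ± 13.1 TPM with IL4 and 124 ± 13.0 TPM untreated (0.39 ± 0.09, adjusted p = 0.00182). Ribosome biogenesis had 1 of 28 higher (Bop1, 0.40, adjusted p = 0.0375, a call lost without any 1 of the cultures), 14 with the KO block and 6 with the culture block or under median-of-ratios scaling. The KO block added Nop56, a snoRNP core protein named after its values were seen, at 74.5 ± 13.1 TPM with IL4 and 59.4 ± 9.72 TPM untreated (adjusted p = 0.148, 0.0101 with the block).

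Calls of cell cycle genes depended on the pairing. Of 44 tested 2 were higher (4.55%, against 5.38% over all genes) and 0 lower, although the median was 0.33. With the block of the KO libraries 24 were higher (54.5%, against 10.4% over all genes) and 1 lower (2.27%, against 14.2%). With the culture block over all libraries 8 were higher and 0 lower. Under median-of-ratios scaling 1 was higher. Without any 1 of the 5 cultures, 1 was called higher. Pcna, the sliding clamp of DNA replication, averaged 351 ± 56.2 TPM with IL4 and 210 ± 31.0 TPM untreated (0.74 ± 0.13, adjusted p = 4.10e-05). Mki67, named after its values were seen, had 26.2, 32.9, 19.1, 16.6 and 28.4 TPM with IL4, against 21.8, 24.4, 16.9, 12.1 and 24.0 TPM untreated. The groups overlapped, since culture 4 was low and culture 2 high in both conditions, but each culture was higher with IL4 (0.30 ± 0.32, adjusted p = 0.677, 0.0135 with the KO block and 0.559 with the culture block). Mcm5 averaged 28.1 TPM with IL4 and 17.3 TPM untreated (0.70 ± 0.23, adjusted p = 0.0520, 0.00529 with the block). Of 28 autophagy genes 0 were higher and 1 was lower (3.57%, against 3.03% over all genes). The lower one was Ulk2 (-0.40, adjusted p = 0.0263), a call lost without any 1 of the cultures. With the KO block 12 were lower (42.9%, against 14.2% over all genes). The lower count was 6 with the culture block and 5 under quantile normalization. Of 23 cholesterol synthesis genes 0 were called either way, and 2 were higher with the block (8.70%, against 10.4% over all genes).

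Further groups held leading members of known function. Of 40 lysosomal genes 11 were higher (27.5%, against 5.38% over all genes) and 0 lower. With the block 18 were higher (45.0%, against 10.4%) and 6 lower (15.0%, near the 14.2% over all genes). Under quantile normalization 8 were higher and 5 lower. Psap (prosaposin) averaged 4465 ± 470 TPM with IL4 and 2508 ± 180 TPM untreated. Of 27 immediate early genes 11 were higher and 0 lower, with Dusp4, a MAP kinase phosphatase, at 42.8 ± 10.0 TPM with IL4 and 5.90 ± 1.48 TPM untreated (2.66 ± 0.27, adjusted p = 7.55e-10). Complement had 5 of 18 higher and 0 lower, 9 with the block, and C3 rose by 1.97. Itgb3, the β3 integrin of fusing macrophages, rose by 1.91, and the collagenase Mmp13 by 2.85. Of iron genes, the transferrin receptor Tfrc rose by 0.96 and the metal transporter Slc11a1 fell by 0.68. Among the 20 members of the TBK1 complex and its adaptors 3 were higher (15.0%, against 5.38% over all genes) and 1 lower (5.00%, against 3.03%). The lower one was Tbkbp1 (-0.50, adjusted p = 0.00187). With the block 4 were higher (20.0%, against 10.4% over all genes) and 5 lower (25.0%, against 14.2%). The higher count was 0 without culture 1 or culture 5, and 1 under median-of-ratios scaling. Sting1, the STING adaptor, was one of the higher members (0.54, adjusted p = 0.0176), and lost the call without culture 1, 3 or 5.

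**Figure D3:**
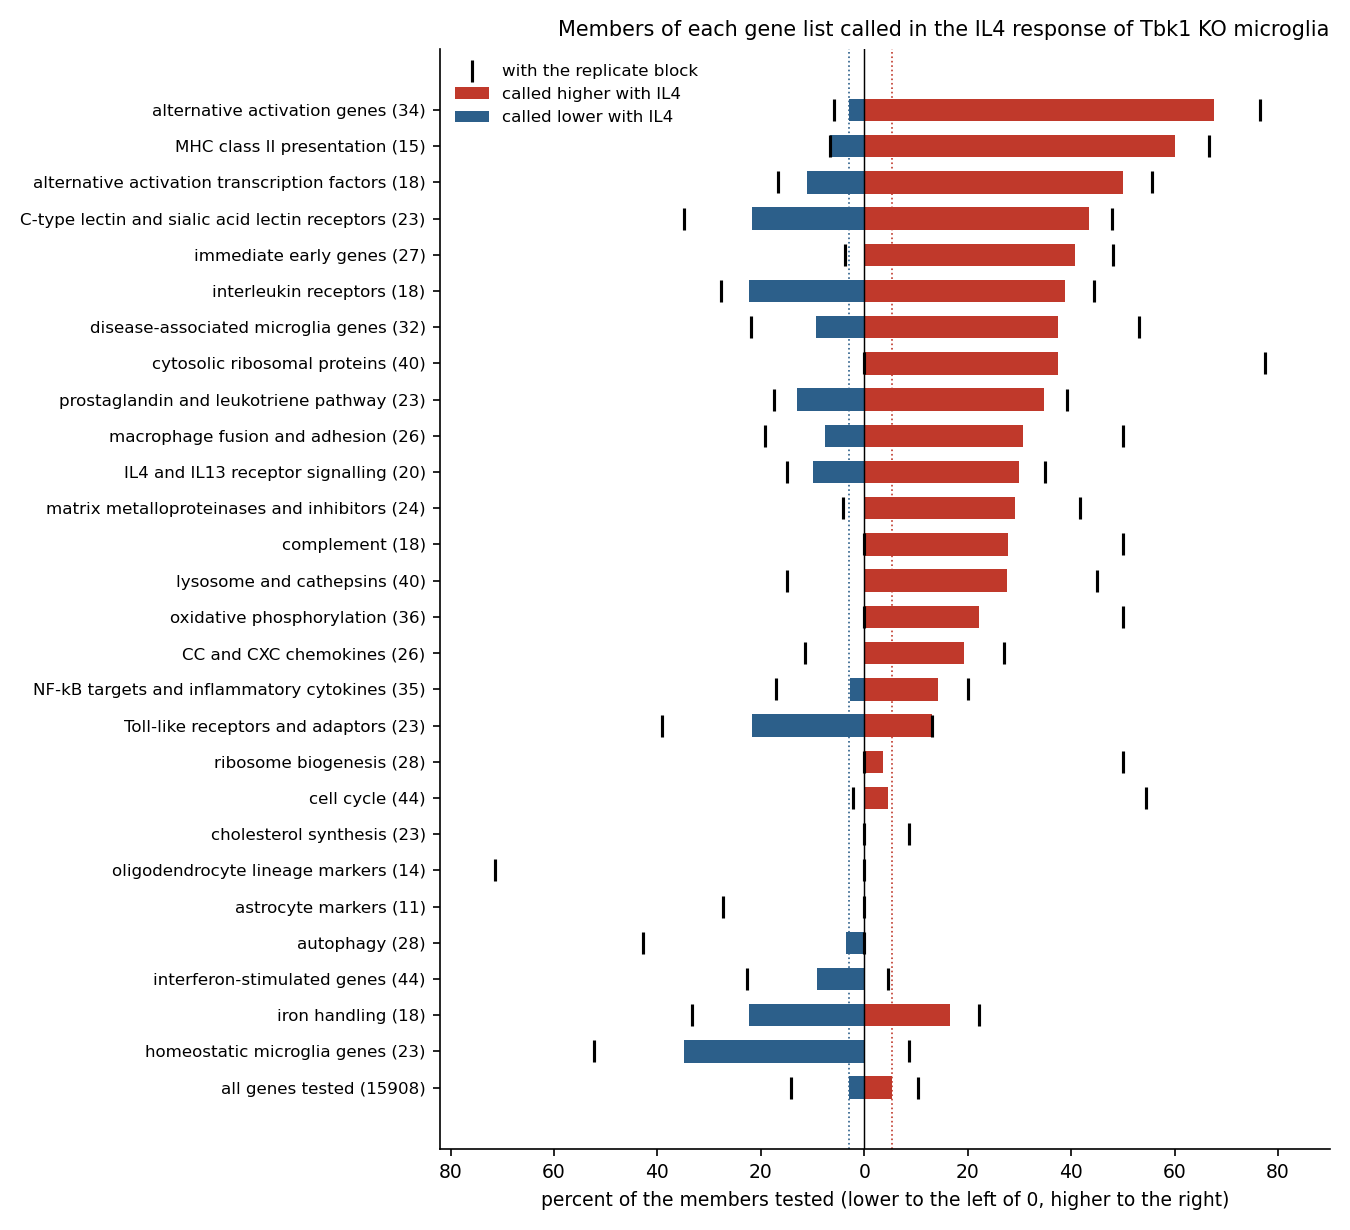
Percent of the tested members of each gene list called in KO IL4 against KO UT, higher to the right of 0 and lower to the left, with the number tested in brackets. Black ticks give the percent with the culture pairs as a block, and dotted lines mark the share over all genes, 5.38% higher and 3.03% lower; alternative activation and MHC class II lie farthest right and homeostatic genes farthest left among the bars.

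**Figure D4:**
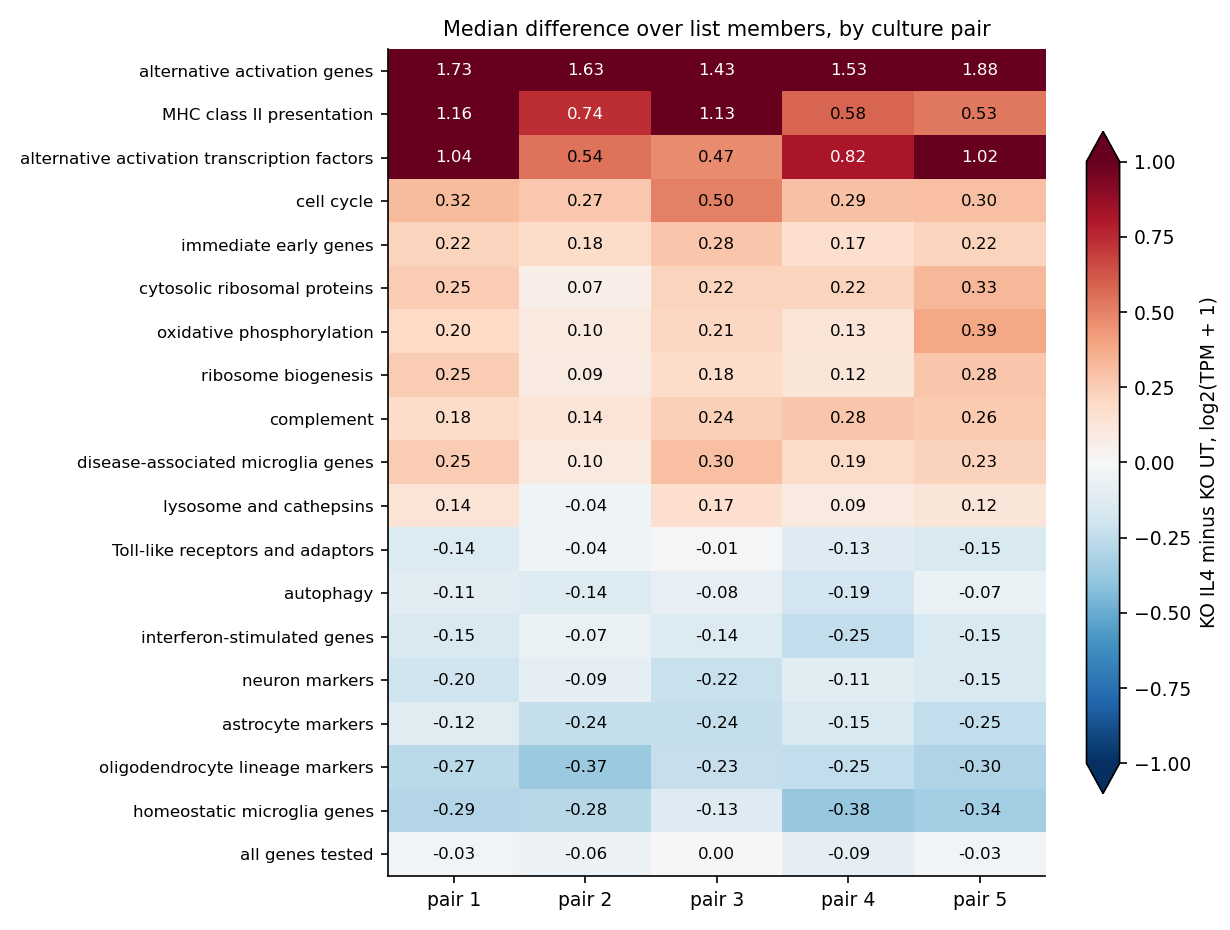
Median over list members of KO IL4 minus KO UT, log2(TPM + 1), in each of the 5 culture pairs (columns), with colour from -1 to 1. The median of the alternative activation genes ran from 1.43 to 1.88 over the pairs, and that of the homeostatic genes from -0.38 to -0.13.

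The cultures were not pure. Oligodendrocyte lineage markers were present in all, and their sum was 1288 ± 610 TPM with IL4 and 1572 ± 725 TPM untreated (ratio 0.819, lower in 5 of 5 pairs, exact permutation p = 0.532). Astrocyte markers summed to 240 ± 85.0 TPM with IL4 and 286 ± 98.1 TPM untreated (0.839, lower in 5 of 5 pairs, exact permutation p = 0.437), and neuron markers to 176 ± 47.0 TPM with IL4 and 212 ± 59.1 TPM untreated (0.829, lower in 5 of 5, exact permutation p = 0.317). Culture 5 had the least of all 3 in both conditions. The permutation tests compared 5 against 5 libraries without the pairing, so the spread between cultures weighs on these p-values. The oligodendrocyte sum ran from 550 to 2223 TPM over the IL4 libraries and from 692 to 2661 TPM over the untreated ones. No marker of these 3 lists was called by limma without a block. With the KO block 10 of 14 oligodendrocyte (71.4%), 3 of 11 astrocyte (27.3%) and 3 of 11 neuron markers (27.3%) were lower. The share over all genes in that fit was 14.2%. With the culture block over all libraries 6, 0 and 2 were lower. Mbp, named after its values were seen, averaged 168 ± 108 TPM with IL4 and 212 ± 132 TPM untreated (adjusted p = 0.775, 0.00150 with the block). Olig1, a lineage transcription factor, was called lower with the KO block alone (adjusted p = 0.0135, and 0.299 with the culture block). In bulk samples fewer cells of a type and less RNA per cell cannot be told apart. The part of these shifts in the small differences above was not tested.

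Markers of border macrophages and monocytes summed to 689 ± 79.6 TPM with IL4 and 466 ± 65.1 TPM untreated, without overlap (exact permutation p = 0.00794, adjusted p = 0.0265). Of 9 tested, 4 were higher and 1 was lower, and the higher count was 2 without culture 4. Mrc1 and Ms4a7 carried most of the sum, and Mrc1 is also on the alternative activation list. Ly6c2, Plac8 and Cd209f were listed at 0 in all 10 libraries. Lyve1 averaged 0.218 TPM with IL4 and 0.185 TPM untreated, Cd163 averaged 0.140 TPM with IL4 and 0.0126 TPM untreated, and Cbr2 averaged 1.00 TPM with IL4 and 0.239 TPM untreated. Siglec1 averaged 43.3 TPM with IL4 and 34.5 TPM untreated, and Pf4, which was not called, 90.4 TPM with IL4 and 127 TPM untreated. Of the dendritic cell genes, Zbtb46 was detected in every library, at 1.92 TPM with IL4 and 1.62 TPM untreated, Flt3 reached at most 0.148 TPM, and Xcr1 and Ccr7 were at 0 throughout. The vascular and fibroblast list rose through Flt1 (110 ± 15.4 TPM with IL4 and 25.9 ± 6.63 TPM untreated) and Pecam1 (4.61 ± 1.94 TPM with IL4 and 0.666 ± 0.348 TPM untreated). Without these 2 genes it summed to 33.6 ± 9.37 TPM with IL4 and 42.2 ± 21.3 TPM untreated (exact permutation p = 0.429).

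Whether the response depends on Tbk1 was addressed by the difference of responses between genotypes. No gene was called for the KO response minus the WT response, nor for the KO response minus the HET response, in limma without a block. The result of this test with the cultures as a block is not given here. Within KO the block raised the number of calls, so the fit without it may miss differences. At an unadjusted p below 0.05 there were 262 genes (1.65%) for KO minus WT and 357 (2.24%) for KO minus HET, with smallest adjusted p of 0.425 and 1.00. Of these genes, 209 lay above 0 and 53 below for KO minus WT, and 238 above and 119 below for KO minus HET. Over all genes tested the median of KO minus WT was 0.05 as deposited and -0.0041 under median-of-ratios scaling. The 95% interval of a difference had a median half-width of 0.47 for KO minus WT and 0.45 for KO minus HET. These intervals were not adjusted for the number of genes tested, whereas calls were. Differences well above these half-widths could therefore also go uncalled. Gm13717 was not called, at 1.98 for KO minus WT and 1.66 for KO minus HET. Absence of a call does not show that the responses were equal. Because WT lacked Cre, KO minus WT also holds Cre, and KO minus HET does not.

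Arg1 differed between IL4 and UT by 10.06 in KO, 10.12 in HET and 10.09 in WT, and Arg1 reached 1489 ± 299 TPM with IL4 in KO, 1419 ± 305 TPM in HET and 1320 ± 288 TPM in WT. The KO minus WT difference for Arg1 was -0.03 with a 95% interval from -1.07 to 1.00. Retnla differed by 8.95 in KO, 8.79 in HET and 8.55 in WT, and Cd74 by 5.36 in KO, 5.11 in HET and 4.97 in WT. Mrc1 differed by 2.49 in KO, 2.48 in HET and 2.25 in WT, and Chil3 by 1.77, 1.37 and 1.05. The 95% interval of KO minus WT ran from -0.62 to 1.08 for Mrc1. For Chil3 the KO minus WT difference was 0.72, with an unadjusted 95% interval from 0.07 to 1.37, and was not called. Chil3 was low, averaging 2.83 TPM with IL4 in KO and 1.17 TPM in WT. For Cd74 the interval of KO minus WT ran from -0.44 to 1.22. All 15 genes with the largest rises and all 15 with the largest falls in KO had the same sign in HET and WT and were called there in that direction. Across these 30 genes KO minus WT ran from -0.41 (P2ry13) to 0.58 (H2-Aa) and KO minus HET from -0.54 (Clec4n) to 0.37 (H2-Aa), and 0 of 30 passed an unadjusted p of 0.05 in either comparison.

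**Figure D5:**
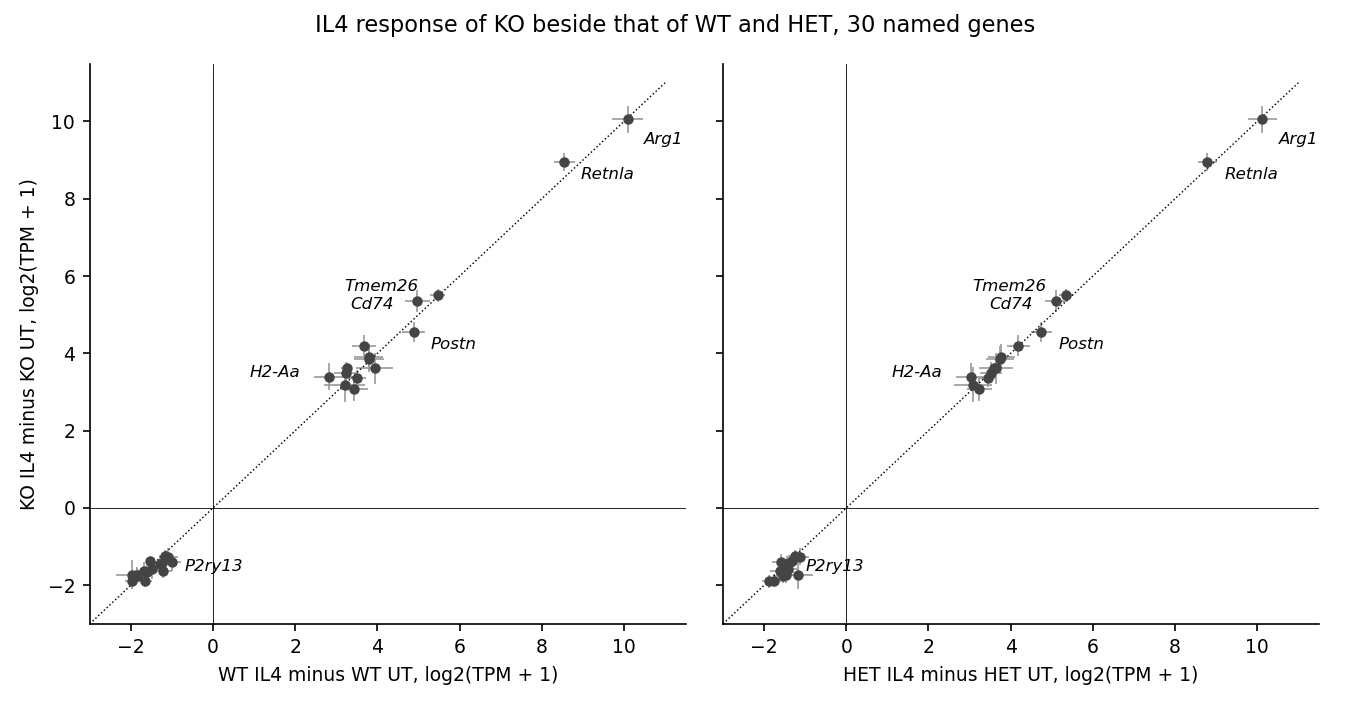
IL4 response of KO (y axis, KO IL4 minus KO UT) against that of WT (left panel, x axis) and HET (right panel, x axis), all as log2(TPM + 1), for the 30 named genes with the largest rises and falls in KO. Bars are SE from limma and the dotted line marks equal responses; 0 of the 30 differences passed an unadjusted p of 0.05.

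Genes can also be chosen by HET values alone, as a description. The 631 genes called higher by IL4 in HET (3.97%) had a median difference of 0.74 in KO and 0.65 in WT, and 542 of them were called higher in KO and 473 in WT. The median of KO minus WT over these genes was 0.06 as deposited and 0.0014 under median-of-ratios scaling, and the number larger in KO than in WT was 409 as deposited and 316 so scaled. The 491 genes called lower in HET (3.09%) had a median of -0.45 in both KO and WT, and 312 were called lower in KO and 278 in WT. The median of KO minus WT over these 491 genes was -0.01 as deposited and -0.08 under median-of-ratios scaling. The number with a larger difference in size in KO than in WT was 267 as deposited and 362 so scaled. In WT, IL4 gave 585 higher calls (3.68%) and 419 lower ones (2.63%). WT UT had 4 libraries and KO UT 5, so counts of calls do not compare the genotypes. For oxidative phosphorylation 8 of 36 genes were called higher in KO, 1 in HET and 1 in WT, with medians of 0.21, 0.04 and 0.06. For cytosolic ribosomal proteins 15 of 40 were called higher in KO, 4 in HET and 1 in WT, with medians of 0.21, 0.12 and 0.15. Over all genes the share called higher was 5.38% in KO, 3.97% in HET and 3.68% in WT. The KO counts depended on the setting. For oxidative phosphorylation the count was 3 without culture 5 and 17 under median-of-ratios scaling. For ribosomal proteins it was 1 under quantile normalization and 31 with the KO block. No gene of either list was called for the difference between responses in the fit without a block.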

How the data were processed

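Per the labels' protocols, 300 ng of RNA went into each library (Kapa mRNA HyperPrep kit). DRAGEN, Picard, Trimmomatic, FastQC and build mm10 are listed without roles, per the submitters' processing notes; versions, annotation and strand setting are not given in the sources used here. The authors deposited gene TPM values, which were used as deposited; each library summed to 999823 to 999880 TPM, and the depth behind them is unknown. Antisense and overlapping genes and near-identical families (Chil3 and Chil4, Rnase2a and Ear2, Mgl2 and Clec10a, H2 genes) are uncertain. Of 32070 genes, 15908 that reached 1 TPM in 4 or more of the 44 libraries were tested on log2(TPM + 1) with limma 3.58.1 in R 4.3.3 (9 groups of WT, HET and KO, one shared spread with a mean trend, Benjamini-Hochberg adjustment, two-sided). Where the labels do not say that cultures came from separate litters, p-values measure the spread between these samples only. Replicate numbers were taken to pair KO IL4 with KO UT: deviations from the group means correlated at 0.181, 0.173, 0.442, 0.347 and 0.558 within pairs 1 to 5, and Ddx3y was at 21.6 and 24.1 TPM (IL4) against 20.7 and 27.2 TPM (UT) in pairs 1 and 2 and near 0 in the others. The block fit used the KO libraries alone. Named genes were Tbk1, Cx3cr1, 3 lists whole, the 15 highest and 15 lowest called genes without overlap whose higher group averaged 5 TPM or more, and up to 4 called members of each other list by the same rule; a few more were named after their values were seen. Predicted and pseudogene models and clone names were left out of the 15 highest and 15 lowest. The members and the 50 lists were chosen with earlier results of these data known. Alternatives were the pseudocount, the filter, scaling, trend, blocks and leaving out libraries. The fit was tested on simulated data. Summed markers were compared by exact permutation tests that did not use the pairing (scipy 1.17.1). Promoter windows came from RefSeq (GRCm38.p6).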

Additional observations from a re-analysis of the deposited data

Results flagged for a closer look

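A library was picked out where its gap to the nearest of the 5 in its group exceeded 0.71 of the group's range (Dixon's test); chance picks about 1 in 20 groups, and 21 of 358 were picked. Among KO IL4 libraries, culture 5 was lowest for Cx3cr1 (229 TPM, others 298 to 322), Ppard (20.4 TPM, others 28.3 to 30.5) and Ulk2 (40.2 TPM, others 46.8 to 49.5). Culture 3 was highest for Slc39a14 (12.7 TPM, others 8.31 to 9.21) and lowest for Slc7a2 (61.1 TPM, others 98.3 to 115), and culture 2 was lowest for Tlr2 (17.4 TPM, others 21.0 to 22.6). Mcm5, a replication licensing factor, was lowest in culture 4 in both conditions, at 17.3 TPM with IL4 (others 28.5 to 34.1) and 8.58 TPM untreated (others 16.9 to 21.4).

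Among KO UT libraries, culture 5 was lowest for Abca1 (106 TPM, others 137 to 150) and Atp5b (471 TPM, others 627 to 682) and highest for Dusp4 (8.53 TPM, others 4.88 to 5.42) and Ptpn1 (136 TPM, others 98.7 to 107). It also had the fewest genes at 1 TPM or more (13594, others 14125 to 14288) and the highest percent of TPM in the 50 most abundant genes (33.3, others 28.8 to 29.4). Culture 4 was lowest for Abcg1 (22.1 TPM, others 33.7 to 38.6) and highest for Cebpa (367 TPM, others 276 to 295). Culture 3 was lowest for Nfkbiz (6.32 TPM, others 8.88 to 9.23), Tyk2 (21.6 TPM, others 25.5 to 26.9) and the summed microglia markers (8051 TPM, others 9129 to 9538). Culture 2 was highest for Rpl13 (720 TPM, others 609 to 629) and Rps18 (1270 TPM, others 1104 to 1135).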

How the results depend on the processing

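With the replicate block in the KO libraries, 1659 genes were called higher and 2264 lower, and with the culture block in all libraries 1297 were lower; no call on a named gene was lost under either block, and blocked values stand beside the results whose call they changed. Leaving out 1 library or pair gave 603 to 877 higher and 294 to 461 lower calls, and 0 to 1 gene above 0 for KO minus WT. Of 161 named genes called, 133 kept the call in all 25 other settings that gave them a value and 28 lost it in some; the cause was not tested. Small uncalled differences changed sign. Under median-of-ratios scaling Jak1 was 0.01, Ptpn11 0.02, Dok1 0.01 and Akt1 0.03, and under quantile normalization Cebpa was -0.02 and Csf1r -0.15. With 1 library or pair left out, Jak1 ran from -0.09 to 0.03, Tyk2 from -0.02 to 0.07, Stat6 from -0.04 to 0.08, Ptpn11 from -0.07 to 0.07, Socs3 from -0.02 to 0.11, Dok1 from -0.08 to 0.01, Folr2 from -0.03 to 0.14, Kdm6b from -0.22 to 0.09, Nr1h2 from -0.02 to 0.07, Akt1 from -0.05 to 0.03, Tmem119 from -0.22 to 0.04, Csf1r from -0.02 to 0.08 and Olig1 from -0.41 to 0.01. The depth is unknown, so values near 0 TPM carry no counting interval.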
